A study of Mus musculus with 8 samples.

Results

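Mmrn1, Nnt, Wdfy1, Ide and Fgfbp3 are 5 mouse genes whose sequence, copy number or level differs among C57BL/6 substrains and colonies. They were taken by symbol from a table of 40481 genes, and all 5 were among the 19647 genes that passed the filter on low counts. They had been picked because they differed between knockout and wild-type stomach, so those differences are described here without a test. The change with age within a genotype was tested. Each age comparison, however, shares 1 pair of libraries with the genotype comparison at each age. All of its libraries thus also entered the choice of genes, and its p-values for the 5 genes are not independent of that choice.

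The RNA came from whole stomach of wild-type and Lgals8 null mice aged 3 or 8 weeks. Lgals8 encodes galectin-8, a lectin, and the series title asks about its part in stomach maturation. The 4 groups hold 2 libraries each, called here WT or KO with the age and a replicate number. The series' design text writes C57BL/6J beside the wild type, and the labels give no substrain, breeding history, allele design, sex or littermate status for the null mice. A difference caused by the loss of Lgals8 and one carried by the strain therefore cannot be told apart by label. Nothing in the labels says that the libraries of a group are separate animals, so p-values measure the spread between these samples, which may be technical.

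C57BL/6 substrains descend from 1 inbred stock and have since fixed separate mutations and copy-number changes. C57BL/6J mice carry a deletion of several exons of Nnt, the mitochondrial transhydrogenase that uses the proton gradient to make NADPH. C57BL/6JOlaHsd mice lack a stretch of the genome that holds Mmrn1. A segment with Ide and Fgfbp3 varies in copy number within C57BL/6J colonies. These statements are background and were not read from the libraries.

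Library totals ran from 58851837 to 80686621 counts. Lgals8 was lower in every KO library, at 6.55% of the WT mean at 3 weeks and 8.25% at 8 weeks, and 132 to 263 counts remained per KO library. Markers of chief, parietal and surface mucous cells were abundant in all 8 libraries, in CPM (counts scaled to a common library size, with TMM correction). Summed chief cell markers at 3 weeks were 91860 to 93510 CPM in WT and 70930 to 75940 CPM in KO. At 8 weeks they were 309000 to 311900 and 134200 to 162800 CPM, and 2 of 4 were called lower in KO. Most of that sum was Pgc, at 304300 to 307300 CPM in WT and 131900 to 159500 CPM in KO at 8 weeks. Replicate counts were furthest apart in KO_8wk (chi-square per degree of freedom 106, against 32.9 to 38 elsewhere). Summed B and plasma cell markers were 26.2 to 81.5 CPM in KO_8wk and at most 4.27 CPM in any other library. Other libraries also stood apart: Alb, a hepatocyte gene, was 835.5 CPM in KO_3wk replicate 2 and 16.3 to 30.4 CPM in the other 3-week libraries. Acta1, a muscle gene, was 25.7 CPM in KO_3wk replicate 1, and summed T cell markers were 14.4 CPM in KO_8wk replicate 1 and at most 5.54 CPM elsewhere. The part of these cell types in the values below was not tested. In bulk tissue, fewer cells of a type and less RNA per cell cannot be told apart.

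Per kilobase of exon, Ide was the highest of the 5 genes in WT at 3 weeks with 15.3 ± 2.2 RPKM (SD, n = 2), followed by Nnt with 6.07 ± 0.049 RPKM and Fgfbp3 with 2.48 ± 0.0065 RPKM. Mmrn1 (1.29 ± 0.30 RPKM) and Wdfy1 (1.03 ± 0.10 RPKM) came last, and their libraries overlapped. In KO at 3 weeks the order was Nnt with 13.6 ± 0.054 RPKM, Ide with 8.79 ± 0.63 RPKM, Wdfy1 with 5.68 ± 0.25 RPKM, Fgfbp3 with 0.937 ± 0.10 RPKM and Mmrn1 at 0. No neighbours in that KO order overlapped. At 8 weeks Nnt and Ide overlapped in WT (8.42 ± 0.94 and 8.35 ± 0.64 RPKM), whereas in KO they stood at 12.8 ± 1.3 and 7.11 ± 0.16 RPKM.

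**Figure D1:**
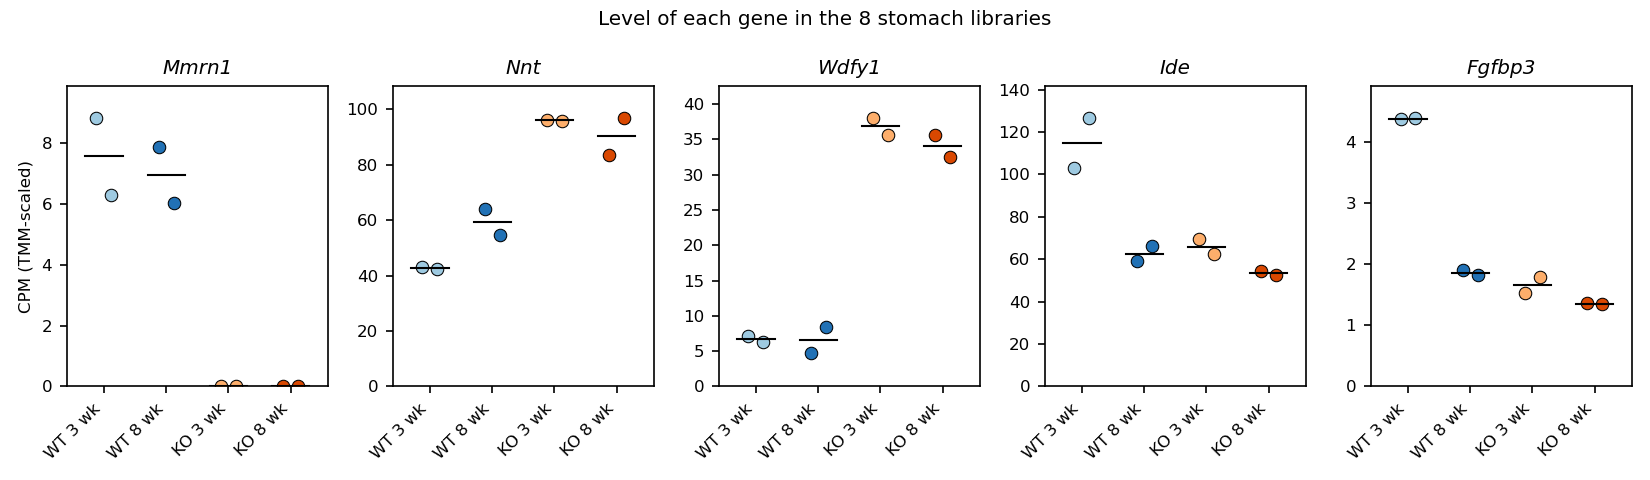
TMM-scaled CPM (y axis, from 0, a separate scale per gene) of the 5 genes in the 8 stomach libraries, by genotype and age (x axis); each point is 1 library and each bar the mean of 2. Mmrn1 lies at 0 in all 4 KO libraries, Nnt and Wdfy1 are higher in KO at both ages, and Ide and Fgfbp3 are highest in the 2 WT libraries at 3 weeks.

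In 4 of the 5 genes the 4 KO libraries did not overlap the 4 WT libraries in TMM-scaled CPM, and Ide was the exception. Over all genes tested, 6.03% showed no overlap in either direction (3.23% with KO higher and 2.79% with KO lower). Since the genes were chosen on this contrast, nothing is read from their count. Fgfbp3 was separated narrowly, by 1.79 CPM in KO_3wk replicate 2 against 1.82 CPM in WT_8wk replicate 2. Against library totals it overlapped: KO_3wk replicate 2 held 130 counts of 61800144, and WT_8wk replicate 1 held 85 of 58851837.

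Mmrn1 encodes multimerin 1, a large secreted protein that binds coagulation factor V, is stored in platelets and endothelium, and whose RNA marks lymphatic endothelium. The gene (ENSMUSG00000054641) spans chr6:60924976-60989378 on the plus strand of GRCm38. WT libraries at 3 weeks held 780 and 501 counts (8.81 and 6.29 CPM), and those at 8 weeks held 350 and 377 counts (7.85 and 6.02 CPM). All 4 KO libraries held 0 counts, which allows up to 0.0367 to 0.0475 CPM per library at a floor of 3 counts. Against that floor Mmrn1 was at least 194-fold lower in KO at 3 weeks and at least 152-fold lower at 8 weeks. With age it did not change detectably in WT (log2 fold change -0.12, SE 0.28, edgeR adjusted p 0.84), and its sign turned without WT_3wk replicate 1 (0.14) or WT_8wk replicate 2 (0.05). KO gave no age value because both ages were at 0.

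Markers of lymphatic endothelium and platelets were present in KO stomach, and those of blood endothelium were lower in sum. Lyve1, a hyaluronan receptor of lymphatic endothelium, was 6.37 to 8.86 CPM in the WT libraries and 7.97 to 11.1 CPM in the KO libraries. Prox1, the transcription factor that sets lymphatic identity, was 2.51 to 5.59 CPM in WT and 2.26 to 3.99 CPM in KO. All 5 tested lymphatic markers had counts in every KO library and overlapped between genotypes, while Ccl21a was at 0 in all 8 libraries. Summed over the 6 markers, the level was 40.1 to 44.7 CPM in WT and 45.2 to 45.4 CPM in KO at 3 weeks, and 33.0 to 35.8 and 36.9 to 44.5 CPM at 8 weeks. Summed platelet markers were 9.82 to 11.5 CPM in WT and 10.6 to 12.5 CPM in KO at 3 weeks, and 7.83 to 8.09 and 9.21 to 9.47 CPM at 8 weeks. Within the platelet list Pf4 was the most abundant, Gp1ba was lower in all KO libraries (0.222 to 0.730 against 0.734 to 0.853 CPM), and Treml1 was at 0 in 3 KO libraries and 1 WT library. Summed blood endothelial markers were 222.8 to 240.1 CPM in WT and 195.2 to 197.2 CPM in KO at 3 weeks, and 161.0 to 205.0 and 142.6 to 145.8 CPM at 8 weeks, below WT at both ages. Emcn, an endothelial sialomucin, was 16.3 to 18.4 CPM in WT and 11.4 to 14.1 CPM in KO without overlap, and was not called for genotype at 8 weeks (log2 fold change -0.57, edgeR adjusted p 0.077). The part of these markers in the Mmrn1 values was not tested.

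**Figure D2:**
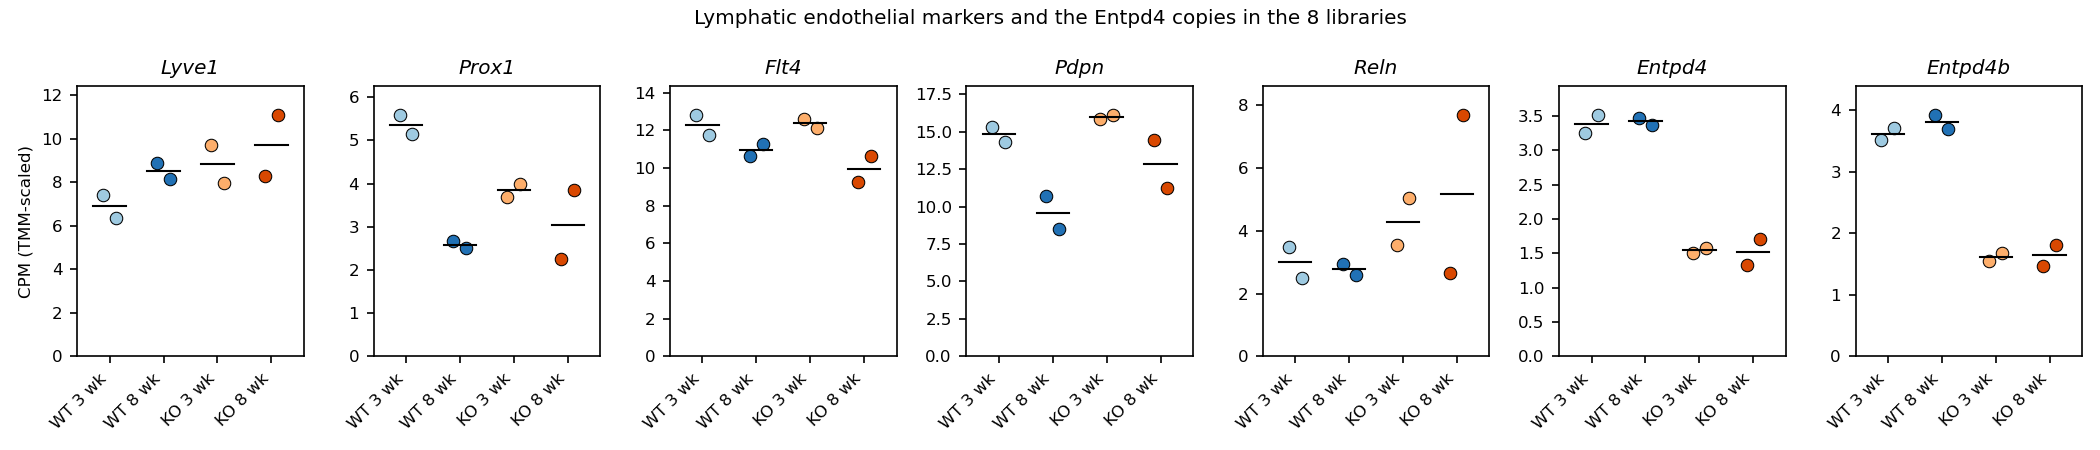
TMM-scaled CPM (y axis, from 0, a separate scale per gene) of 5 lymphatic endothelial markers and of Entpd4 and Entpd4b in the 8 libraries by genotype and age (x axis); points are libraries and bars the means of 2. The lymphatic markers have counts in all KO libraries, and Entpd4 and Entpd4b are lower in all 4 KO libraries.

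Tested genes beyond the end of Mmrn1 were detected in KO. Ccser1, a coiled-coil gene 190.9 kb away, was 5.73 ± 0.23 CPM in WT and 3.85 ± 0.24 CPM in KO at 3 weeks, and 7.88 ± 0.25 and 7.09 ± 0.77 CPM at 8 weeks. It rose with age in KO (log2 fold change 0.88, SE 0.16, adjusted p 0.015). The lncRNA A730020E08Rik, the nearest tested gene on that side, was at 0.110 to 0.570 CPM in the KO libraries.

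The start of Mmrn1 in RefSeq (GRCm38.p6) is shown because the gene had no counts in KO, with 250 bases before and 50 after the start, chr6:60944067-60944366, plus strand; this start lies inside the span given above. Capitals mark CCAAT on either strand.
Mmrn1: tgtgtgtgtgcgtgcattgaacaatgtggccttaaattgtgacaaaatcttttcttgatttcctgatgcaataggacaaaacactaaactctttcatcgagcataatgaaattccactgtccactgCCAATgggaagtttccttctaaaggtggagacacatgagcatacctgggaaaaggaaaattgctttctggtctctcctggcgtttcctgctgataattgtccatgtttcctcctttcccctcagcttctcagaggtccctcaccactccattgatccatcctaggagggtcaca
The window holds 1 CCAAT and neither TATAAA nor GGGCGG on either strand. CCAAT occurred in 37.4% of 32851 mouse promoters of this length.

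In the multimerin and EMILIN family with the platelet partners of Mmrn1, 8 of 8 genes were tested. With age in WT, 1 rose and 2 fell, against 6.92% of all genes higher and 7.41% lower; the list's median log2 fold change was -0.54 and that of all genes -0.02. In KO 2 fell and 0 rose, against 6.55% lower and 4.21% higher, with a median of -0.37. Under library totals 1 rose and 6 fell in WT (median -1.10), and 0 rose and 4 fell in KO. That setting called 185 of all 19647 genes higher and 9413 lower in WT, and 386 higher and 4852 lower in KO. Emilin1, an elastic fibre glycoprotein, was 1.72-fold lower at 8 weeks in WT (edgeR adjusted p 0.0040) and 1.85-fold lower in KO (0.0035). Thbs1, which encodes thrombospondin 1, fell 1.65-fold in WT (0.028), and Emilin2 rose 2.92-fold in WT (0.022).

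Nnt (ENSMUSG00000025453) spans chr13:119335448-119408997 on the minus strand; Lgals8 lies on the same chromosome at chr13:12439415-12464944. WT libraries were at 42.95 and 42.5 CPM at 3 weeks and 63.9 and 54.5 CPM at 8 weeks. KO libraries were at 96.3 and 95.7 CPM at 3 weeks and 83.6 and 96.8 CPM at 8 weeks. Every KO library was above every WT library, by 2.25-fold between means at 3 weeks and 1.52-fold at 8 weeks. WT libraries still held 2848 to 3804 counts of Nnt. GRCm38 is a C57BL/6J assembly, so reads from exons deleted in that strain have no place in it, and a gene count does not show which exons were read.

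Nnt rose with age in WT (log2 fold change 0.47, SE 0.10, edgeR adjusted p 0.023) and not detectably in KO (-0.09, SE 0.10, adjusted p 0.62); the difference between these was not tested. The WT value depended on scaling, since it was -0.09 under library totals. Adjusted p was 0.15 without WT_3wk replicate 1, 0.15 without WT_3wk replicate 2, 0.094 without WT_8wk replicate 1, 0.053 without KO_3wk replicate 1 and 0.052 without KO_3wk replicate 2. Under library totals Nnt fell in KO (-0.36, adjusted p 0.026).

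A ratio to nearby genes within a library does not depend on library scaling, but it depends on the genes chosen. Relative to the median of 12 protein-coding genes within 1 Mb, Nnt was 13.2- and 13.7-fold higher in the WT libraries at 3 weeks and 13.7- and 12.9-fold at 8 weeks. In KO the ratio was 29.9 and 30.2 at 3 weeks and 37.7 and 26.4 at 8 weeks. On this measure KO exceeded WT by 1.16 (log2) at 3 weeks and 1.25 at 8 weeks, and WT changed by -0.02 with age. The measure moves with the neighbours too, and several of the 12 were of low level. With age in WT the log2 fold change was 0.46 for Ccl28, 0.76 for Tmem267 and -0.51 for Fgf10. By genotype at 8 weeks it was -0.48, -0.81 and 0.02, and edgeR called none of these. The part of these changes in the Nnt ratio was not tested. The nearest tested genes did not share the pattern of Nnt: Paip1, a translation regulator 19.6 kb away, was 34.1 ± 0.60 and 39.2 ± 2.0 CPM in WT and 27.6 ± 2.3 and 33.5 ± 0.19 CPM in KO at 3 and 8 weeks. Fgf10, a growth factor of stomach mesenchyme, was 2.15 ± 0.14 and 1.51 ± 0.12 CPM in WT and 2.42 ± 0.33 and 1.53 ± 0.57 CPM in KO.

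Other enzymes of mitochondrial NADPH supply and peroxide removal, the processes that Nnt serves, were tested with it. Of 19, 9 rose with age in WT and 0 fell (median log2 fold change 0.38), against 6.92% of all genes higher and 7.41% lower, and 5 rose in KO and 0 fell (0.15), against 4.21% and 6.55%; under library totals 1 rose and 6 fell in WT (median -0.18), and 0 rose and 5 fell in KO (-0.12). Prdx5, a peroxiredoxin, rose 1.499-fold in WT (edgeR adjusted p 0.0062) and 1.32-fold in KO (0.024), but its log2 changes under library totals were 0.02 and 0.13 and did not pass. Gpx4, which reduces lipid peroxides, was 1.43-fold higher in WT (0.0073) and 1.31-fold in KO (0.021), with -0.05 and 0.12 under library totals, where neither passed. By genotype 1 of the 19 fell at 8 weeks, and library totals gave 5 higher and 1 lower. That setting called 5355 of all 19647 genes higher and 102 lower.

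Aldh1l2, a mitochondrial folate enzyme that makes NADPH, was called for genotype at 8 weeks. It was at 9.84 and 12.4 CPM in WT and 7.36 and 5.55 CPM in KO at 3 weeks, and at 28.0 and 29.7 CPM in WT and 9.85 and 11.6 CPM in KO at 8 weeks. It rose 2.60-fold with age in WT (edgeR adjusted p 0.0042) and by 0.73 (log2) in KO (0.039; 0.096 under library totals). It was 2.69-fold lower in KO at 8 weeks (0.037), where 0.244% of all genes were called lower and 0.0814% higher. Library totals also called Aldh1l2 at 8 weeks (log2 fold change -1.08, adjusted p 0.014). A fit of the 2 groups alone, however, called 0 of all genes for genotype at that age. At 3 weeks Aldh1l2 was not called (log2 fold change -0.78, adjusted p 0.51). Over all genes 0.00509% were called higher at 3 weeks, 0.0102% lower and 0.0153% in either direction. Of the 4 chief cell markers tested, 2 were called lower in KO at 8 weeks. Pgc was 2.10-fold lower (edgeR adjusted p 0.043) and the transcription factor gene Bhlha15 2.30-fold lower (0.047). Gif was not called (log2 fold change -0.76, adjusted p 0.092), and Pga5 went the other way (0.45, adjusted p 0.26). The part of these markers in the Aldh1l2 value was not tested. Among 78 tested genes related to the 5 by role or by substrain, edgeR called Aldh1l2 alone for genotype. At 8 weeks 20 of the 78 had an unadjusted p under 0.05, DESeq2 called 11, limma voom 1, and library totals 25 (22 higher and 3 lower). Of all 19647 genes the same settings gave 3776, 1757, 22 and 5457 (5355 higher and 102 lower). At 3 weeks edgeR, limma voom and library totals called 0 of the 78, DESeq2 called 3, and 10 had an unadjusted p under 0.05. For all genes the counts were 3 with edgeR, 7 with limma voom, 4 with library totals, 180 with DESeq2 and 1381 by unadjusted p.

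Wdfy1 (ENSMUSG00000073643), at chr1:79702262-79776143 on the minus strand, encodes an endosomal protein with a FYVE domain and WD40 repeats that acts in signalling from toll-like receptors 3 and 4. WT libraries were at 7.18 and 6.26 CPM at 3 weeks and 4.80 and 8.36 CPM at 8 weeks. KO libraries were at 38.0 and 35.7 CPM at 3 weeks and 35.7 and 32.5 CPM at 8 weeks. The genotypes were far apart, with KO means 5.49-fold higher at 3 weeks and 5.18-fold higher at 8 weeks. Age made no detectable difference in WT (log2 fold change -0.02, SE 0.23, edgeR adjusted p 0.97; 0.08 without WT_3wk replicate 1, 0.31 without WT_8wk replicate 1, -0.49 at the lowest) or in KO (-0.11, SE 0.22, adjusted p 0.79).

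At its own 5' end Wdfy1 overlaps Mrpl44 (chr1:79776018-79781445), a mitochondrial ribosomal protein gene. The strand setting of the counting is not given in the sources used here. Mrpl44 was 15.6 ± 2.0 and 20.5 ± 2.2 CPM in WT and 17.4 ± 2.0 and 18.8 ± 1.3 CPM in KO at 3 and 8 weeks, so its own count overlapped between genotypes. Serpine2, a protease inhibitor gene 18.1 kb away, was 13.2 ± 0.45 and 9.10 ± 1.7 CPM in WT and 17.1 ± 1.9 and 11.9 ± 2.7 CPM in KO. Ap1s3, an adaptor subunit gene 30.3 kb away on the other side, stayed between 10.6 and 13.2 CPM in all 8 libraries. Relative to 9 protein-coding neighbours, Wdfy1 was 0.466- to 0.838-fold in the WT libraries and 2.77- to 3.57-fold in the KO libraries.

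Genes of the toll-like receptor pathway were tested beside Wdfy1. Of 16 related genes, 0 were called with age in WT (6 at an unadjusted p under 0.05, 3 with DESeq2, 1 with limma voom, and 12 lower under library totals), with a median log2 fold change of -0.15. The same settings gave 5487, 3901 and 2665 of all 19647 genes, and 9413 lower under library totals. In KO 1 rose with age: Ticam1, which encodes the adaptor TRIF, by 1.33-fold (edgeR adjusted p 0.032), against 4.21% of all genes. Under library totals that call was lost (log2 fold change 0.14, adjusted p 0.28), and 0 rose and 2 fell in the list. Tlr3 itself was at 8.42 to 12.1 CPM in WT and 7.20 to 10.4 CPM in KO.

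**Figure D3:**
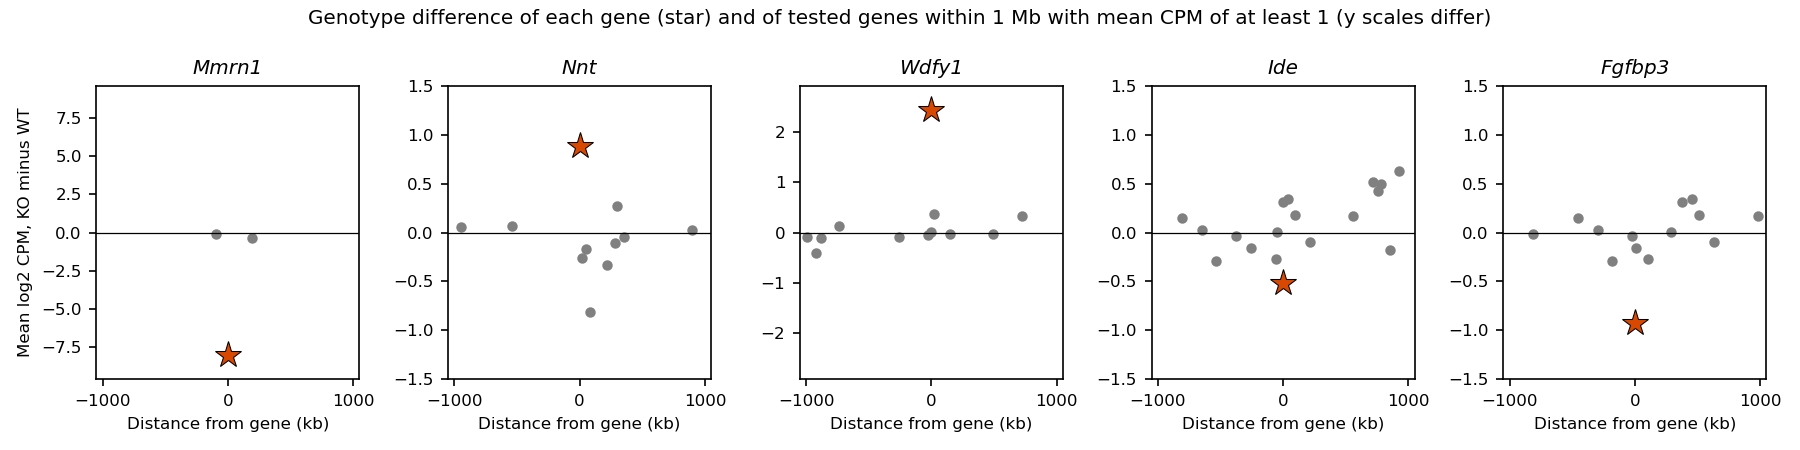
Difference of mean log2 CPM between the 4 KO and 4 WT libraries (y axis, scales differ) against distance from each of the 5 genes in kb (x axis), for tested genes within 1 Mb with a mean of at least 1 CPM; the star is the gene itself, and the value for Mmrn1 depends on the prior count of 2. The stars for Mmrn1 and Wdfy1 stand furthest out, followed by Fgfbp3 (-0.92) and Nnt (0.89), and that for Ide (-0.51) stands least far out. Among the neighbours of Nnt, Tmem267 lies at -0.81.

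Ide (ENSMUSG00000056999), at chr19:37268743-37337852 on the minus strand, encodes insulin-degrading enzyme, a zinc metalloprotease that cleaves insulin and amyloid beta. Fgfbp3 (ENSMUSG00000047632), at chr19:36917550-36919615 on the minus strand, encodes a secreted protein that binds fibroblast growth factors. Ide was at 103 and 127 CPM in WT and 69.3 and 62.6 CPM in KO at 3 weeks. At 8 weeks it was at 59.2 and 66.1 CPM in WT and 54.2 and 52.5 CPM in KO. Both WT libraries at 3 weeks stood above the other 6, and WT at 8 weeks overlapped KO at 3 weeks. The KO mean was 57.4% of WT at 3 weeks and 85.2% at 8 weeks, and the 8-week log2 ratio of -0.23 turned to 0.12 under library totals.

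Fgfbp3 was likewise highest in both WT libraries at 3 weeks, at a much lower level. Its libraries held 388 and 350 counts in WT at 3 weeks (4.38 and 4.40 CPM) and 85 and 114 in WT at 8 weeks (1.91 and 1.82 CPM). KO libraries held 125 and 130 counts at 3 weeks (1.53 and 1.79 CPM) and 93 and 85 at 8 weeks (1.37 and 1.34 CPM). The KO mean was 37.8% of WT at 3 weeks and 72.7% at 8 weeks.

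With age, Ide fell 1.83-fold in WT (log2 fold change -0.87, SE 0.11, edgeR adjusted p 0.0045), and it passed in all 8 fits that left out 1 library. In KO its change did not pass (-0.31, SE 0.11, adjusted p 0.13), although it did under library totals (-0.58, adjusted p 0.010). Fgfbp3 fell 2.35-fold in WT (log2 fold change -1.23, SE 0.23, adjusted p 0.013) and did not pass in KO (-0.29, SE 0.23, adjusted p 0.45). Its WT call ended without WT_3wk replicate 1 (adjusted p 0.11), WT_3wk replicate 2 (0.11), WT_8wk replicate 1 (0.053) or WT_8wk replicate 2 (0.055). Whether the age changes differed between genotypes was not tested. Of the 5 genes, 1 thus rose and 2 fell with age in WT, where 14.3% of all genes were called. The WT libraries at 3 weeks, highest for Ide and Fgfbp3, also enter the genotype difference for which the genes were picked. The falls of Ide and Fgfbp3 are therefore not independent of that choice, and nothing is read from the count of age calls. In KO 0 of the 4 genes with a value were called with edgeR, where 10.8% of all genes were called. Of the 4, 1 had an unadjusted p under 0.05, DESeq2 and limma voom called 0, and library totals 2. Of all 19647 genes in KO, 5532 had an unadjusted p under 0.05, DESeq2 called 3766, limma voom 2032 and library totals 5238.

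**Figure D4:**
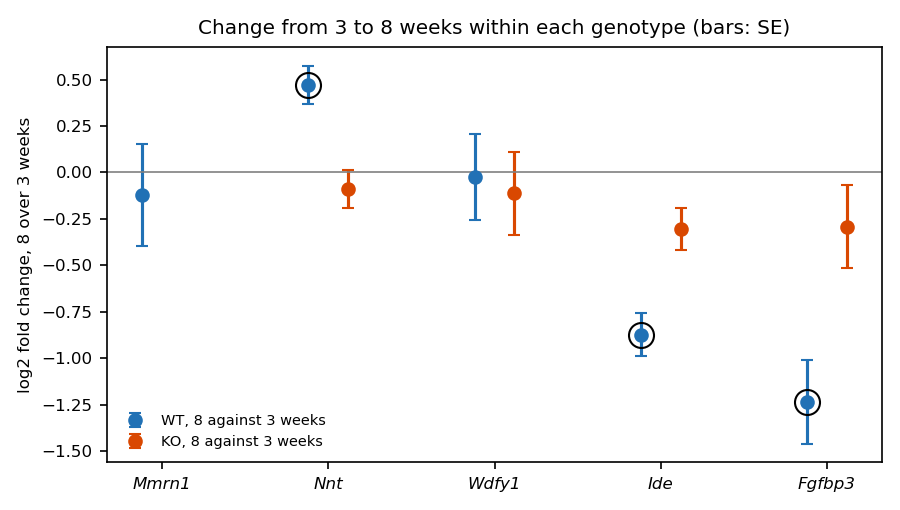
Log2 fold change from 3 to 8 weeks (y axis) of the 5 genes (x axis) in WT (blue) and KO (orange), with the SE as bars and a black circle where edgeR's adjusted p was under 0.05; Mmrn1 has no KO value. The 3 circled values are those of Nnt (0.47), Ide (-0.87) and Fgfbp3 (-1.23) in WT.

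The segment between Fgfbp3 and Ide on chromosome 19 holds Btaf1, Cpeb3 and March5, and these did not all move with them. Btaf1, a regulator of the TATA-binding protein that starts 6.46 kb from Fgfbp3, was 33.5 ± 2.0 and 24.2 ± 2.7 CPM in WT and 25.0 ± 1.5 and 25.9 ± 0.52 CPM in KO at 3 and 8 weeks. It fell with age in WT (log2 fold change -0.47, SE 0.10, edgeR adjusted p 0.024), and its KO change was 0.05 (adjusted p 0.81). March5, a ubiquitin ligase of mitochondria 46.6 kb from Ide, was 39.8 ± 1.6 and 47.2 ± 1.7 CPM in WT and 40.2 ± 3.2 and 47.2 ± 2.5 CPM in KO. Cpeb3, a regulator of translation, was 14.6 to 15.9 CPM in the WT libraries and 11.1 to 14.2 CPM in the KO libraries, without overlap.

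Outside that segment, Tnks2, 24.1 kb beyond Fgfbp3, was 107 ± 1.7 and 87.6 ± 1.6 CPM in WT and 100.2 ± 9.2 and 89.5 ± 2.7 CPM in KO. Kif11, a mitotic kinesin gene 38.6 kb beyond Ide, fell with age in both genotypes (log2 fold change -0.998, adjusted p 0.0060 in WT; -0.80, adjusted p 0.014 in KO). Relative to 18 protein-coding neighbours, Ide was 10.6 and 13.8 times the median in WT at 3 weeks, 7.15 and 8.68 in WT at 8 weeks, 8.49 and 7.23 in KO at 3 weeks, and 6.05 and 6.01 in KO at 8 weeks. The fall with age in WT was -0.62 (log2) for Ide and -1.05 for Fgfbp3 on that measure.

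**Figure D5:**
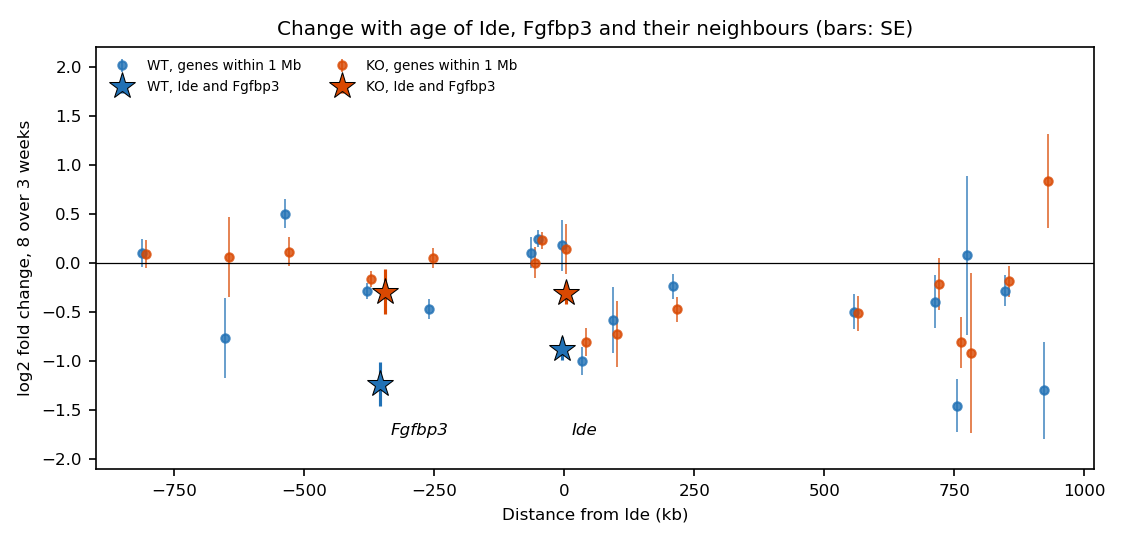
Log2 fold change from 3 to 8 weeks (y axis, bars show the SE) of Ide and Fgfbp3 (stars) and of tested genes within 1 Mb of Ide with a mean of at least 1 CPM (points), against distance from Ide in kb (x axis), in WT (blue) and KO (orange). In WT the stars lie at -0.87 and -1.23, and Btaf1, next to Fgfbp3, at -0.47.

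The RefSeq starts of both genes are shown because their levels moved together, with the same 300 bases per gene and capitals for CCAAT and TATAAA on either strand (chr19:37334495-37334794 for Ide, inside its span above, and chr19:36919550-36919849 for Fgfbp3, both minus strand, GRCm38.p6).
Ide: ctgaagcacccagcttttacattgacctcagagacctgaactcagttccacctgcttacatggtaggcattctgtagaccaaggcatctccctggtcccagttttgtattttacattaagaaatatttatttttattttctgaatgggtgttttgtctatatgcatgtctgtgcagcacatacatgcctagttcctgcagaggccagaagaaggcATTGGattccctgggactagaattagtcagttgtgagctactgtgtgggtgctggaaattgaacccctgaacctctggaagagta
Fgfbp3: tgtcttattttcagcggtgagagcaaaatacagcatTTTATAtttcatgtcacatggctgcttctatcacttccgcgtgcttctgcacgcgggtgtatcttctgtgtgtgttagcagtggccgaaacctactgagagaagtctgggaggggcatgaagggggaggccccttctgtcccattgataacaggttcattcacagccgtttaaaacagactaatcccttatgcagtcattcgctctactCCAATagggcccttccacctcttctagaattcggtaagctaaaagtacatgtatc
Each holds 1 CCAAT, and Fgfbp3 also 1 TATAAA, a motif present in 13.6% of the 32851 promoters. Neither holds GGGCGG, present in 35.7%. Their GC contents were 44.0% and 46.7%, against a median of 52.7%.

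Genes related to Ide by role are the M16 metalloproteases and proteins of insulin and amyloid turnover. Of 15 tested, 3 rose and 2 fell with age in WT (median log2 fold change 0.12, or -0.45 with 0 higher and 8 lower under library totals), against 6.92% of all genes higher and 7.41% lower. In KO 3 fell and 0 rose, against 6.55% and 4.21%, and 6 fell under library totals. That setting called 9413 of all 19647 genes lower in WT and 4852 in KO. Pmpcb, the catalytic subunit of the mitochondrial processing peptidase, rose 1.44-fold in WT (edgeR adjusted p 0.022; log2 -0.04 under library totals). Igf1r, the receptor for insulin-like growth factor 1, was 1.38-fold lower in WT (0.040) and 1.43-fold lower in KO (0.034).

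Of 14 FGF ligands, receptors and binding proteins tested beside Fgfbp3, 2 fell with age in WT and 3 in KO, and 0 rose in either, against 7.41% and 6.55% of all genes lower. Under library totals 9 fell in WT and 4 in KO, against 9413 and 4852 of all 19647 genes. Fgfr2, a receptor for epithelial FGFs, was 1.44-fold lower at 8 weeks in WT (edgeR adjusted p 0.016) and 1.52-fold lower in KO (0.013). Fgfbp1, the family member closest in role, was at 59.5 to 93.2 CPM in WT and 62.9 to 86.1 CPM in KO. None of the 14 was called for genotype at 8 weeks with edgeR, where 3 had an unadjusted p under 0.05, DESeq2 called 2 and limma voom 0. The same settings gave 3776, 1757 and 22 of all 19647 genes.

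Across the 5 genes, 52 other genes were tested within 1 Mb. Of these, 4 did not overlap between KO and WT, a share near the 6.03% of all genes: Cpeb3 was lower, and Cep55, Cyp26c1 and the pseudogene Rpl10-ps6 inside Ide were higher. Cyp26c1 was near the floor of 3 counts, at 0 to 0.022 CPM in WT and 0.044 to 0.193 CPM in KO. With edgeR 0 of the 52 were called for genotype at either age. At 3 weeks 5 had an unadjusted p under 0.05, DESeq2 called 1 and limma voom 0, against 1381, 180 and 7 of all 19647 genes. For the 52 genes at 8 weeks the counts were 8, 2 and 0, and library totals called 14. The same settings gave 3776, 1757, 22 and 5457 of the 19647 genes at 8 weeks, and edgeR called 0.326%.

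A list of 7 other genes known to differ among C57BL/6 substrains had 6 tested members, and edgeR called 0 for genotype at either age (2 and 3 at an unadjusted p under 0.05, the same numbers called with DESeq2, 0 with limma voom). Over all genes edgeR called 0.0153% at 3 weeks and 0.326% at 8 weeks. DESeq2 called 180 and 1757 of all 19647 genes, limma voom 7 and 22, and 1381 and 3776 had an unadjusted p under 0.05. At 8 weeks library totals called 5457 of all genes and 3 of the 6: Entpd4 (adjusted p 0.038), Entpd4b (0.031) and Cyfip2 (0.029). Entpd4, a nucleotide-hydrolysing enzyme of the Golgi and lysosome, was at 3.25 and 3.52 CPM in WT at 3 weeks and 3.48 and 3.37 CPM at 8 weeks. KO libraries were at 1.505 and 1.58 CPM at 3 weeks and 1.34 and 1.71 CPM at 8 weeks. Its KO means were 45.6% and 44.5% of WT without overlap (log2 fold change -1.17 at 8 weeks, adjusted p 0.083). Its copy Entpd4b gave 44.7% and 43.2% (-1.21 at 8 weeks, adjusted p 0.076). The longest transcripts of the pair are 3589 bases each and identical in all of them, so the split of reads between them is uncertain.

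Cyfip2, a regulator of actin, did not overlap either. It was at 9.84 and 9.48 CPM in WT at 3 weeks and 5.81 and 9.29 CPM at 8 weeks, and at 11.7 and 11.2 CPM in KO at 3 weeks and 18.8 and 66.9 CPM at 8 weeks. The KO spread at 8 weeks rested on replicate 2. Dock2, a gene of leukocyte migration, overlapped at 9.32 to 15.7 CPM in WT and 9.76 to 14.1 CPM in KO. Gabra2, a neuronal receptor gene, was at 0.617 and 1.42 CPM in KO at 8 weeks and at most 0.288 CPM in the other libraries. Its log2 fold change by genotype at 8 weeks was 2.74, and edgeR did not call it.

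Likeness over the 8 libraries was measured by Pearson's r of log2 CPM with a prior count of 2, as a description over libraries that share 4 groups, with predicted gene models and pseudogenes left out of the names. Entpd4b (r 0.99), Entpd4 (0.98) and Rnf167 (0.98) were most like Mmrn1. Rnf167, a ubiquitin ligase gene on chromosome 11, was at 42.6 to 57.03 CPM in WT and 17.5 to 18.8 CPM in KO. Of the named genes, Psmd7 (0.97), Msc (0.97) and Gpr137b (0.95), at ranks 1, 3 and 6 over all genes, were most like Wdfy1, and Gpr137b lies on chromosome 13 as Lgals8 does. Tspan4 (0.95), Eif4ebp1 (0.95) and Fcrlb (0.94), at ranks 3, 4 and 6, were those most like Nnt. Hmbox1 (0.98), Atp11b (0.98) and Cnot3 (0.96) were most like Ide, and Ehhadh (0.97) and Hmbox1 (0.96) were among those most like Fgfbp3. Ide ranked 10 among 19646 genes for likeness to Fgfbp3 (r 0.95), and Wdfy1 ranked last for Mmrn1 (r -0.99). Because the genes were picked for a KO to WT difference in these same libraries, nothing is read from r between them.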

How the data were processed

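The authors deposited 1 table of raw counts per Ensembl gene for 8 stomach libraries made from poly(A) RNA. Per the submitters' processing notes they used bcl2fastq, STAR 2.7.9a, featureCounts 2.0.3 of Subread and GRCm38; no source used here gives the annotation release or strand setting. Of 40757 lines, 276 repeats with the same counts were left out, leaving 40481 IDs, 40340 of them in GENCODE M21, which gave positions and exon lengths on the same build. Symbols turned into dates (26) were restored.

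Groups came from the titles. Counts were fitted in R 4.3.3 with edgeR 4.0.16 (filterByExpr, TMM, robust quasi-likelihood, 1 mean per group, all 8 libraries); "adjusted p" is Benjamini-Hochberg over 19647 genes, with a threshold of 0.05. DESeq2 1.42.0, limma 3.58.1 and other scalings were alternatives. The procedure was tested on simulated data. Fold values of the 5 genes by genotype are ratios of mean CPM. A floor of 3 counts per library covers counting error only.

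The genes and lists were chosen with earlier results of these data known. Genes named beside the 5 are the nearest tested neighbours, non-overlapping neighbours within 1 Mb, up to 3 called members of a list (or 2 as values), and the 3 most alike by r after predicted models and pseudogenes were left out; 2 genes taken by these rules are not reported here; markers of lymphatic endothelium, Tlr3, Fgfbp1, Dock2, Btaf1, March5 and Ccser1 were added after their values were seen. Promoters are RefSeq's (GRCm38.p6), found for 3 of the 5 genes. Replicate numbers were not used to pair samples in the main fit.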

Additional observations from a re-analysis of the deposited data

Results flagged for a closer look

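For 3 related genes both libraries of each group moved one way in one comparison and the opposite way in its counterpart; the differences were not tested. Cyfip2 had a log2 change with age of -0.36 in WT and 1.90 in KO. Fgf7, a growth factor made by mesenchyme, had 0.81 in WT and -0.21 in KO with age, and its KO to WT difference was 0.74 at 3 weeks and -0.28 at 8 weeks. Fgfrl1, an FGF receptor without a kinase domain, had 0.0579 and -0.477 with age, and 0.0823 and -0.452 by genotype. Under library totals Fgfrl1 fell with age in both genotypes (-0.503 in WT and -0.750 in KO), and Fgf7 was above 0 by genotype at both ages (0.801 and 0.0784). The age and genotype values of a gene come from the same 8 libraries.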

How the results depend on the processing

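Library totals in place of TMM moved the median log2 change of all genes from -0.02 to -0.58 (age in WT), from 0.01 to -0.26 (age in KO) and from 0.00 to 0.35 (genotype at 8 weeks). Under library totals the KO to WT log2 ratios became -6.89 for Mmrn1 at 8 weeks, 1.23 and 0.96 for Nnt at 3 and 8 weeks, 0.12 for Ide at 8 weeks (reversed) and -0.11 for Fgfbp3 at 8 weeks. Relative to neighbours within 1 Mb, an alternative chosen after seeing the data, Nnt was at 1.16 and 1.25, Ide at -0.63 and -0.39 and Fgfbp3 at -0.72 at 8 weeks. Leaving out 1 library gave 2.03 to 2.83 for Wdfy1 at 8 weeks and -1.52 to -1.29 for Fgfbp3 at 3 weeks. Age values that reversed were those of Mmrn1 in WT (-0.347 to 0.140 with 1 library left out, above 0 without WT_3wk replicate 1 or WT_8wk replicate 2), Nnt in WT (-0.0905 under library totals, -0.0198 relative to neighbours), Nnt in KO (-0.199 to 0.0165 with 1 library left out, the highest without KO_8wk replicate 1; 0.0701 relative to neighbours) and Wdfy1 in WT (0.0113 with upper-quartile scaling, 0.0822 relative to neighbours, and -0.487 to 0.313 with 1 library left out, above 0 without WT_3wk replicate 1 or WT_8wk replicate 1). The cause was not tested.

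The count of genes called for age in WT (2814) was 9598 under library totals and 382 to 4123 with 1 library left out. For age in KO (2115) it was 5238 under library totals, 3766 with DESeq2, 241 in a fit of the 2 groups alone and 268 to 3008 with 1 library left out. For genotype at 3 weeks (3) it was 180 with DESeq2, 7 with limma voom, 23 without the filter, 523 with 2 groups and 0 to 16 with 1 library left out. For genotype at 8 weeks (64) it was 5457 under library totals, 1757 with DESeq2, 22 with limma voom, 441 without the filter, 0 with 2 groups and 1 to 1255 with 1 library left out. Neighbours without overlap numbered 2 under library totals in place of 4.

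With the replicate number as a block, the counts were 2463, 1715, 3 and 63, and no age call of the 5 genes changed (adjusted p 0.0092 for Ide, 0.027 for Fgfbp3 and 0.038 for Nnt in WT). The deviations of same-numbered libraries correlated from -0.461 (WT_3wk with WT_8wk) to 0.472 (WT_3wk with KO_3wk) between groups. Mixed signs cannot show whether samples share a batch. A block by number would miss a batch that is numbered differently between groups. Fgfbp3 had 85 to 388 counts per library, which with 2 libraries per group limits its precision.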
